A study of Mus musculus with 24 samples.

Results

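The genes of the IL-12 family, IL-18 and interferon gamma were examined as type 1 signals that could restrain type 2 immunity in the ileum. The 10 genes, of 39056 counted, were chosen by name and not by a threshold on a measured value: the cytokine subunits Il12a, Il12b, Il23a, Il27 and Ebi3, the cytokines Ifng and Il18, and the receptor chains Il12rb1, Il12rb2 and Il27ra. RNA was sequenced from live CD45+ (hematopoietic) cells and from live CD45- cells, a mixture of epithelium, endothelium and stroma, sorted from the ileum of C57BL/6 mice aged 9.0 to 10.3 weeks, with Peyer's patches removed and part of the epithelial fraction combined with the lamina propria cells. All mice carried a floxed Il4ra gene, and the 4 genotypes were Hoil1+/+ or Hoil1-/- with intact Il4ra (f/f), and Hoil1+/+ or Hoil1-/- with the Vil1-Cre transgene, which the Villin promoter expresses in intestinal epithelial cells and which deletes Il4ra there (ΔIEC). The Hoil1-/- mutation, carried by all cells, is a partial loss of HOIL1, a component of the complex that assembles linear ubiquitin chains, and a low level of an N-terminal part of the protein remains. Each of the 8 groups of genotype and fraction had 3 libraries, named here by their library numbers.

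IL-12 is a dimer of the products of Il12a (p35) and Il12b (p40), and IL-23 pairs the product of Il23a (p19) with the same p40 subunit. IL-27 pairs the products of Il27 (p28) and Ebi3. Dendritic cells and macrophages are the usual sources of these dimers, whereas T cells, NK cells and ILC1 respond to IL-12 and IL-18 through STAT4 and MyD88 and make IFN-γ, which, like IL-27, can restrain ILC2 and Th2 cells. In the intestine IL-18 is also made by epithelial cells, as a precursor that caspase-1 cleaves.

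The genes are protein-coding and mostly unlinked in the mouse genome (GRCm38). The subunit genes are Il12a (chr3:68690644-68698547), Il12b (chr11:44400063-44414033), Il23a (chr10:128296139-128298752), Il27 (chr7:126589010-126594941) and Ebi3 (chr17:55952640-55957022). Ifng (chr10:118441046-118445892) shares its chromosome with Il23a, and Il18 lies at chr9:50554827-50581840. Of the receptor chains, Il12rb1 (chr8:70808449-70821424) and Il27ra (chr8:84030294-84042589) are on one chromosome, and Il12rb2 is at chr6:67291318-67376188. Counts of a gene sum its exons, so isoforms were not told apart.

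Promoter sequences were available from RefSeq (GRCm38.p6) for 6 of the 10 genes (Ebi3, Ifng, Il12a, Il12b, Il12rb2 and Il18). Those of Ifng and Il12rb2, which were high and low in the same CD45+ libraries, and of Ebi3, the member with the highest level per exon length, are given here as the 250 bases before the transcription start, 5′ to 3′, on the strand of the gene. Ifng lies on the plus strand (promoter chr10:118440796-118441045), Il12rb2 on the minus strand (chr6:67376189-67376438) and Ebi3 on the plus strand (chr17:55952373-55952622). Capitals mark matches to TTCNNNGAA, the letters of a STAT-binding GAS element, in Ifng and Il12rb2, and to GGG, any 5 bases and CC, the letters of an NF-kappaB site, in Ebi3.
Ifng: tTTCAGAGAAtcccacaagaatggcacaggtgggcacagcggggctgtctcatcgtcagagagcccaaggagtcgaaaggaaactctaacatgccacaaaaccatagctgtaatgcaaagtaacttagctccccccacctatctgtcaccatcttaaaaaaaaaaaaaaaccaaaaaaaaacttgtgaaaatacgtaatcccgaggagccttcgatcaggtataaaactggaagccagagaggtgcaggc
Il12rb2: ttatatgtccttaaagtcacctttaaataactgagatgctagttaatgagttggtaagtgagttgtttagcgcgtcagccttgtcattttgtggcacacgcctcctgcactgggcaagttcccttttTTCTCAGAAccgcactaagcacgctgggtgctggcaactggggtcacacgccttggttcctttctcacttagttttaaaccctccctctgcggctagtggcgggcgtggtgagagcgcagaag
Ebi3: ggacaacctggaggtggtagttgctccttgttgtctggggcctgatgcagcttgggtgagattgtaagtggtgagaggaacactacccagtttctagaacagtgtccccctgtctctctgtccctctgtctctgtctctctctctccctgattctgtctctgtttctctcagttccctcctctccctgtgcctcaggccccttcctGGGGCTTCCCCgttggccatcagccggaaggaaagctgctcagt
In Ifng the match lay at bases -249 to -241 from the start, and in Il12rb2 at -123 to -115. In Ebi3, 2 overlapping matches, each on both strands, covered bases -44 to -34. The GAS letters were found, on either strand, in 7.02% of 32851 promoters of the same length, and the NF-kappaB letters in 45.8%. 1 of the 2 starts of Il12a had overlapping NF-kappaB matches at -113 to -103. The IRF letters (GAAA, any 2 bases, GAAA, in 2.98% of promoters), GGTGTGA (T-box, 3.33%) and TGANTCA (AP-1, 6.75%) had no match in any of the 6 genes, and Il12b and Il18 had no match to any of the 5 motifs. A match of letters is a description of the sequence and does not show that a factor binds.

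Levels are given in CPM, the counts of a gene scaled to library size, after TMM scaling for library composition. The libraries held 14.9 to 76.8 M counts on genes in CD45+ cells and 6.03 to 68.3 M in CD45- cells. Rbck1, which encodes HOIL1, ranged from 90.5 to 158 CPM in Hoil1+/+ and from 5.38 to 15.9 CPM in Hoil1-/- CD45+ libraries. The CD45- ranges were 73.3 to 110 CPM and 0 to 7.29 CPM, so every library matched the Hoil1 genotype of its label. Rbck1 does not bear on the Il4ra genotype, which is taken from the labels. For Ptprc, the gene of CD45, the ranges were 252 to 755 CPM in CD45+ and 0 to 16.1 CPM in CD45- libraries. The study left out 3 libraries as outliers, the CD45+ libraries Hoil1-/- f/f replicate 13 and Hoil1-/- ΔIEC replicate 24 and the CD45- library Hoil1-/- f/f replicate 23. They are left out of the tests and of the ratios between fractions unless all libraries are named, and they are included in the levels given by library and per exon length. The number of libraries, 2 or 3 for each group, limits the tests, and the labels give no cage, litter or sort day.

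Most members were transcripts of CD45+ cells. Of the 10 genes, 8 were higher in CD45+ than in CD45- cells over the 4 genotypes (edgeR's quasi-likelihood test, adjusted p under 0.05), where 24.5% of the 18778 genes tested were higher in CD45+ cells and 49.6% differed in either direction. Not a single count of Il12a, Il12b, Il27 or Ifng was found in the 12 CD45- libraries. Against a floor of 3 counts per library (mean 0.211 CPM), the mean CD45+ level was at least 44.2-fold higher for Ifng, at least 26.4-fold for Il27 and at least 10.5-fold for Il12b. With all 24 libraries these bounds were 36.4, 26.4 and 8.39, and the levels of Il12b, at 0 in 1 CD45+ library, overlapped between fractions. Those of Ifng, at 0 in 2 CD45+ libraries, overlapped also on the study list, which holds Hoil1+/+ f/f replicate 19 at 0. The ratio of mean levels was 725 for Il12rb1, 661 for Il12rb2 and 207 for Ebi3. In CD45- cells these had in all 14 counts in 1 library, 8 counts in 1 library and 18 counts in 2 libraries. Il23a was 5.11 times higher in CD45+ cells (adjusted p = 0.0204, edgeR). Without CD45- Hoil1-/- f/f replicate 1 or replicate 2 the adjusted p was 0.0591 or 0.0707, and without CD45+ Hoil1-/- f/f replicate 14 the Il23a fit gave no usable error.

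Il27ra and Il18 were the members with counts in most CD45- libraries. Il27ra, the IL-27-specific receptor chain, had a mean of 42.2 CPM in CD45+ and 4.95 CPM in CD45- libraries of the study list, a log2 fold change of 3.22 (SE 0.62, adjusted p = 3.4e-04, edgeR), and no CD45- library reached a CD45+ library. Il18 was the exception, with a log2 fold change of 0.78 (SE 0.36, adjusted p = 0.0833, edgeR) and ranges that overlapped. It passed the threshold with all 24 libraries (log2 fold change 1.06, adjusted p = 0.0208, with 50.5% of genes called), and also without CD45- Hoil1+/+ ΔIEC replicate 10 (0.93, adjusted p = 0.0438) or CD45- Hoil1+/+ f/f replicate 8 (0.98, adjusted p = 0.0307).

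**Figure D1:**
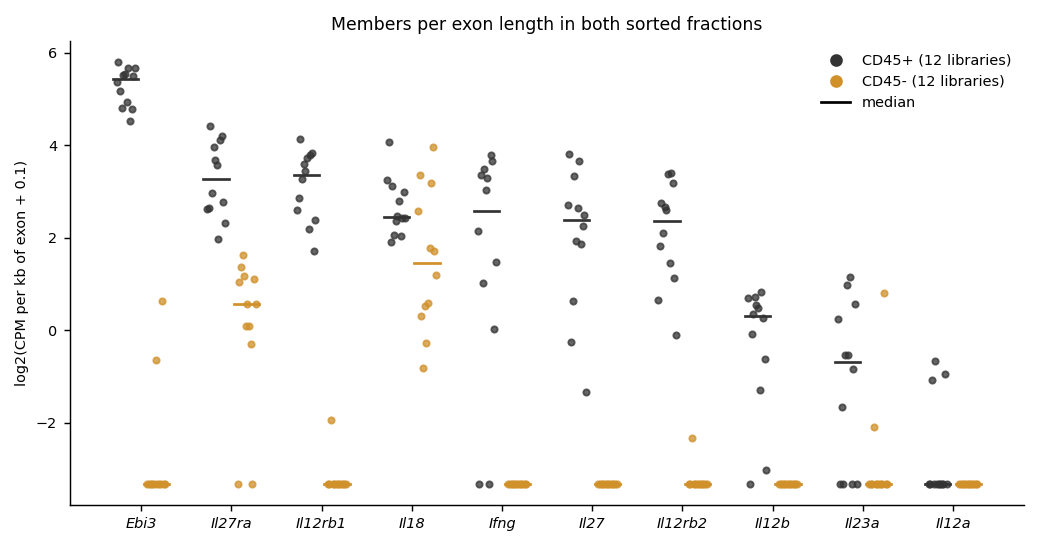
Levels of the 10 genes as log2 of CPM per kb of exon plus 0.1, in the 12 CD45+ (dark) and 12 CD45- (orange) libraries. Points are libraries, bars are medians and the lowest line of points is 0. Ebi3 stood above every other member in CD45+ cells, and Il18 was the highest member in CD45- cells.

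Divided by exon length, which makes genes comparable, Ebi3 was the most abundant member in CD45+ cells, with a mean of 39.9 CPM per kb (range 22.9 to 55.6, n = 12). It was above the next gene, Il27ra, in 12 of 12 libraries. Il27ra followed at 11 CPM per kb, Il12rb1 at 9.71, Il18 at 6.83, Ifng at 6.24, Il27 at 5.73 and Il12rb2 at 5.25, and each of these overlapped its neighbour in the order. The subunits of IL-12 and IL-23 came last, Il12b at 0.946, Il23a at 0.690 and Il12a at 0.110 CPM per kb, again overlapping. In CD45- cells the order was Il18 at 4.50 and Il27ra at 1.41 CPM per kb, with every other member at or below 0.165.

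The subunits of one dimer were not at equal levels. Per kb of exon, Ebi3 exceeded its partner Il27 in 12 of 12 CD45+ libraries, by 4.03 to 171 times (median 6.45). The ratio was between 4.04 and 8.12 in the 6 Hoil1+/+ libraries and spread from 4.03 to 171 in the 6 Hoil1-/- libraries, with 48.9 and 19.1 in Hoil1-/- f/f replicates 14 and 15. Both ends of that spread, 4.03 in replicate 13 and 171 in replicate 24, came from libraries the study left out. Hoil1-/- ΔIEC replicates 16 and 17 were at 4.55 and 12.4. Il12b exceeded Il12a in 11 of 12 libraries and Il23a in 8 of 12. Il12rb1, the chain shared by the IL-12 and IL-23 receptors, exceeded Il12rb2, the chain specific to IL-12, in 12 of 12 libraries by 1.28 to 6.17 times (median 1.86).

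**Figure D2:**
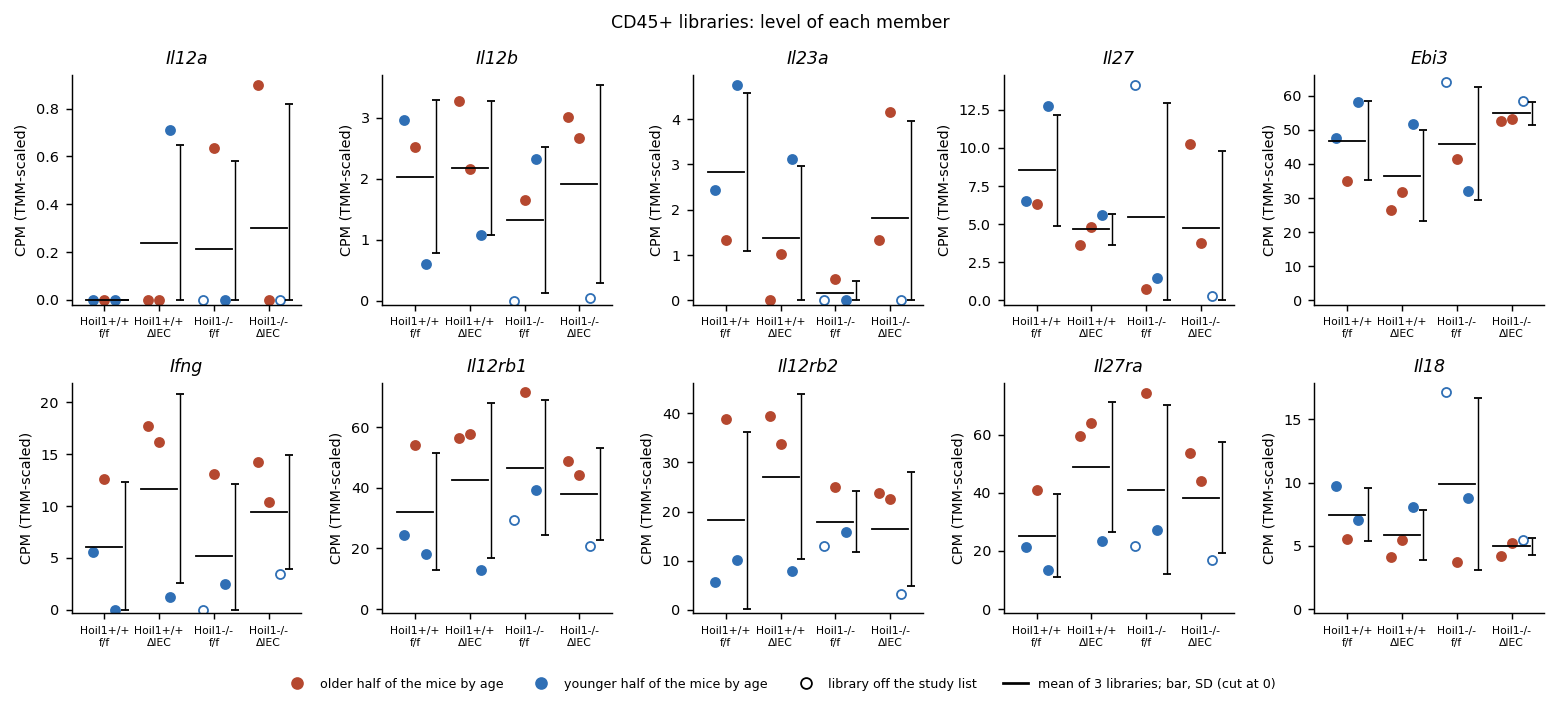
CPM of each member in the 12 CD45+ libraries by genotype, with the group mean and SD of 3 libraries. Open symbols are the 2 libraries off the study list, and colours mark the older (red, 9.6 to 9.9 weeks) and younger (blue, 9.0 to 9.4 weeks) mice. Hoil1+/+ and Hoil1-/- libraries overlap in every panel, and the red points of Ifng, Il12rb1, Il12rb2 and Il27ra lie above all blue points.

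Il12a was close to the limit of detection in CD45+ cells. It had 42 counts (0.710 CPM) in Hoil1+/+ ΔIEC replicate 22, 33 counts (0.636 CPM) in Hoil1-/- f/f replicate 14 and 25 counts (0.898 CPM) in Hoil1-/- ΔIEC replicate 16, and none in the other 9 libraries. The libraries were amplified by PCR without molecular identifiers, so that such counts need not be separate molecules and the floors cover counting error only. 

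Il12b, the p40 subunit, was at 2.97, 2.52 and 0.605 CPM in Hoil1+/+ f/f replicates 12, 18 and 19 and at 3.28, 2.16 and 1.08 CPM in Hoil1+/+ ΔIEC replicates 20, 21 and 22. In Hoil1-/- f/f replicates 13, 14 and 15 it was at 0, 1.66 and 2.32 CPM, and in Hoil1-/- ΔIEC replicates 16, 17 and 24 at 3.02, 2.67 and 0.0433 CPM. The 2 lowest libraries were those the study left out, and the genotypes overlapped. Il23a, the p19 subunit, was at 2.43, 1.32 and 4.75 CPM in Hoil1+/+ f/f, 0, 1.03 and 3.11 CPM in Hoil1+/+ ΔIEC, 0, 0.482 and 0 CPM in Hoil1-/- f/f and 1.33, 4.16 and 0 CPM in Hoil1-/- ΔIEC libraries, in the same order. Within f/f mice its levels did not overlap between the Hoil1 genotypes over all 6 libraries, as for 6.14% of genes, and within ΔIEC mice they did.

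Il27, the p28 subunit, was at 6.54, 6.29 and 12.7 CPM in Hoil1+/+ f/f and at 3.61, 4.78 and 5.63 CPM in Hoil1+/+ ΔIEC libraries. In Hoil1-/- f/f replicates 14 and 15 it was at 0.751 and 1.48 CPM, below every Hoil1+/+ library. In Hoil1-/- f/f replicate 13, which the study left out, it was at 14.1 CPM, the highest of all. In Hoil1-/- ΔIEC replicates 16, 17 and 24 it was at 10.2, 3.79 and 0.303 CPM, so the Hoil1-/- libraries held both the highest and the lowest levels. Ebi3, its partner, varied far less, from 26.4 to 58.2 CPM in Hoil1+/+ and from 31.9 to 64.2 CPM in Hoil1-/- libraries.

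Ifng, the effector cytokine of type 1 lymphocytes, was at 5.59, 12.6 and 0 CPM in Hoil1+/+ f/f replicates 12, 18 and 19 and at 17.7, 16.1 and 1.18 CPM in Hoil1+/+ ΔIEC replicates 20, 21 and 22. In Hoil1-/- f/f replicates 13, 14 and 15 it was at 0, 13 and 2.50 CPM, and in Hoil1-/- ΔIEC replicates 16, 17 and 24 at 14.3, 10.4 and 3.46 CPM. Each genotype thus held libraries with high and with low Ifng. The 6 libraries with the highest Ifng (replicates 14, 16, 17, 18, 20 and 21) were also the 6 highest for Il12rb1, Il12rb2 and Il27ra.

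Il12rb2 was at 39.0, 39.6 and 33.8 CPM in Hoil1+/+ replicates 18, 20 and 21 and at 25, 23.8 and 22.6 CPM in Hoil1-/- replicates 14, 16 and 17. In the other 6 libraries it ranged from 3.12 to 15.9 CPM. Il12rb1 ranged from 12.9 to 71.6 CPM and Il27ra from 13.4 to 74.5 CPM, both highest in Hoil1-/- f/f replicate 14. Il18 was at 3.74 to 9.73 CPM in 11 CD45+ libraries and at 17.1 CPM in Hoil1-/- f/f replicate 13.

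No member was called for the Hoil1 effect in CD45+ cells. Averaged over both Il4ra genotypes, 0 of 10 members passed edgeR's quasi-likelihood test, where 0.00587% of the 17029 genes tested did (1 gene, and 996 genes or 5.85% at an unadjusted p under 0.05). With all 12 libraries 0 members and 0.0125% of genes were called. Among the members Il27 alone had an unadjusted p under 0.05, with a log2 fold change (Hoil1-/- over Hoil1+/+) of -1.19 (SE 0.44, unadjusted p = 0.0219, adjusted p = 0.784, edgeR). With all 12 libraries it was -0.32 (SE 0.81, unadjusted p = 0.702, edgeR). The receptor chains were at 0.44 (SE 0.44) for Il12rb1, -0.05 (SE 0.57) for Il12rb2 and 0.48 (SE 0.41) for Il27ra. Ifng was at 0.20 (SE 1.08), an error larger than that of any receptor chain. Ebi3, at 0.08 (SE 0.22), had the smallest error of the 10. Of the rest, Il12b was at 0.15 (SE 0.66), Il18 at -0.30 (SE 0.37) and Il23a at -1.27 (SE 1.42). Leaving out 1 library moved Il23a between -4.45, without Hoil1-/- f/f replicate 14, and -0.55, without Hoil1+/+ ΔIEC replicate 22. Il12a, with counts in 1 Hoil1+/+ and 2 Hoil1-/- libraries, is given by those counts alone.

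An exact two-sided permutation test of mean log2(CPM + 0.1) between 4 Hoil1-/- and 6 Hoil1+/+ CD45+ libraries gave p = 0.133 for Il27 and higher values for the other 9 genes, where 210 splits allow a smallest p of 0.00476. The levels of Hoil1-/- and Hoil1+/+ libraries overlapped for all 10 members, and those of 1.09% of genes did not overlap. Fewer cells of a type and less RNA per cell cannot be told apart in sorted bulk RNA.

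**Figure D3:**
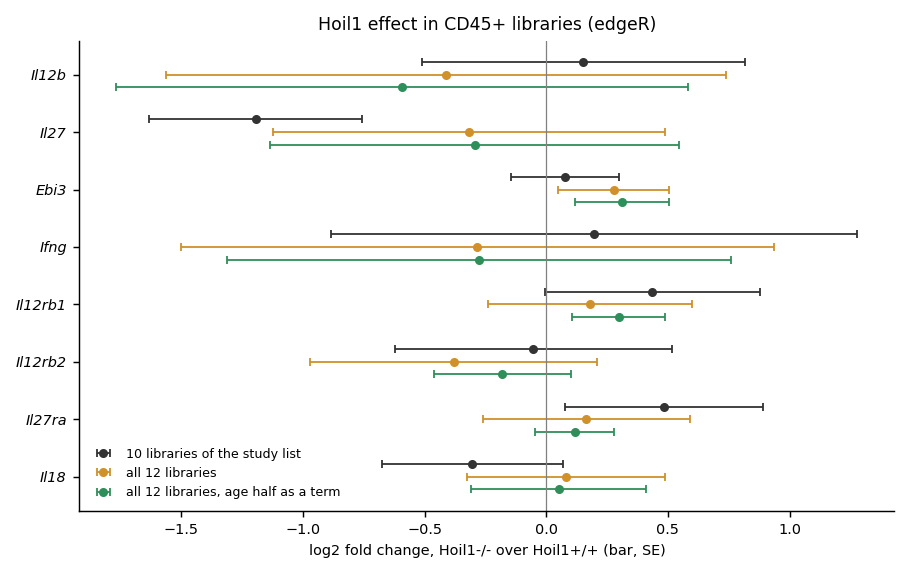
Log2 fold change of Hoil1-/- over Hoil1+/+ CD45+ libraries for 8 members, averaged over both Il4ra genotypes, with bars of 1 SE from edgeR. Colours give the 10 libraries of the study list, all 12 libraries, and all 12 with age group as a term. Il12a and Il23a, with counts in 3 and 8 libraries, are not drawn. With age in the fit the bars of Il12rb1, Il12rb2 and Il27ra are shorter, and those of Il12b stay long. The age groups were chosen after these levels were seen, so the shorter bars follow from that choice.

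Within f/f mice and within ΔIEC mice, the Hoil1 effect called 0 of 10 members in CD45+ cells, as it called 0% of the genes tested in each (898 and 1035 at an unadjusted p under 0.05). Il27 had a log2 fold change of -2.95 (SE 0.68, unadjusted p = 0.00149, adjusted p = 0.624) within f/f mice and 0.56 (SE 0.59, adjusted p = 0.889) within ΔIEC mice. The difference of these effects was 3.52 (SE 0.87, adjusted p = 0.591, edgeR), where 0% of genes were called. With replicates 13 and 24 added the value within f/f mice was -0.67, within ΔIEC mice 0.04 and the difference 0.71, so these sizes rest on the libraries left out. DESeq2 and edgeR's other tests called Il27 within f/f mice on the study list, with adjusted p between 0.00291 and 0.0407. They also called more genes in all there than the quasi-likelihood test, and the counts are given at the end.

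Where libraries of the Hoil1 genotypes did not overlap on the study list, the share of all genes doing so was large. In CD45+ f/f mice Il23a and Il27 were lower in the 2 Hoil1-/- libraries, where 16.6% of genes did not overlap. In CD45+ ΔIEC mice Ebi3 was higher in the 2 Hoil1-/- libraries, where 27.6% did not. Loss of Il4ra in epithelial cells called 0 members in CD45+ cells (0.00587% of genes) and 0 in CD45- cells (0% of genes, with 971 at an unadjusted p under 0.05). In CD45+ cells Il27 had the lowest p of the members for that effect, at a log2 fold change (ΔIEC over f/f) of 0.91 (SE 0.43, adjusted p = 0.474), and -0.54 with all libraries.

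The CD45+ libraries high in Ifng and the receptor chains came from the older mice. When the 12 CD45+ libraries were divided at the median age given by the labels, a division added after the values were seen, each age group held 3 Hoil1+/+ and 3 Hoil1-/- libraries and every genotype was in both age groups. This balance does not hold on the study list, which lacks replicates 13 and 24, both Hoil1-/- and of the younger group. Its Hoil1-/- ΔIEC libraries were all of the older group, so the Hoil1 effects on that list were not balanced for age. Ifng was at 10.4 to 17.7 CPM in the older group (9.6 to 9.9 weeks) and at 0 to 5.59 CPM in the younger (9.0 to 9.4 weeks). Il12rb2 was at 22.6 to 39.6 CPM in the older and 3.12 to 15.9 CPM in the younger group, Il12rb1 at 44.3 to 71.6 and 12.9 to 39.3 CPM, and Il27ra at 41.1 to 74.5 and 13.4 to 27.1 CPM. These 4 of the 10 members did not overlap between age groups, as did 2.14% of 17020 genes. The 6 other members, Il12a, Il12b, Il23a, Il27, Ebi3 and Il18, overlapped. In CD45- libraries, divided at their own median age, every member overlapped, most with few or no counts there.

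With age group as a term and all 12 libraries, the log2 fold change (older over younger) fitted by edgeR was 1.45 for Il27ra (SE 0.17), 1.41 for Il12rb1 (SE 0.21), 2.08 for Il12rb2 (SE 0.33) and 2.75 for Ifng (SE 1.17). Because the division was chosen after these levels were seen, the values are descriptions and no p-value of them is given. On the 10 libraries of the study list the receptor chains were at 1.38, 1.51 and 1.87. Leaving out 1 of all 12 libraries at a time kept the receptor chains between 1.18 and 2.46, and Ifng between 2.45 and 3.62.

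**Figure D4:**
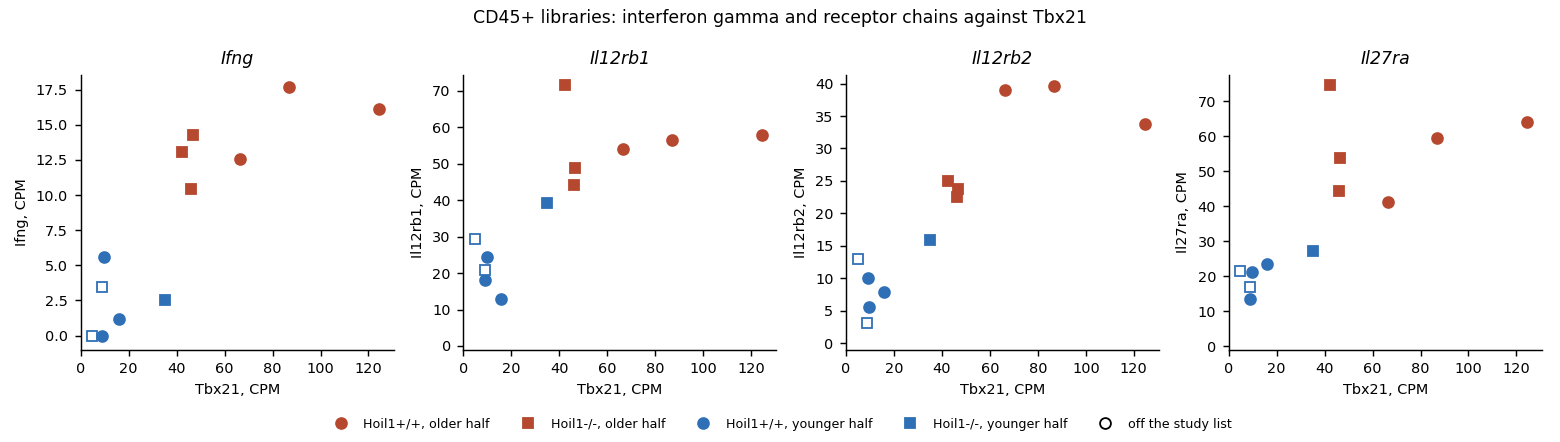
CPM of Ifng, Il12rb1, Il12rb2 and Il27ra against CPM of Tbx21 in the 12 CD45+ libraries. Circles are Hoil1+/+ and squares Hoil1-/- libraries, red is the older and blue the younger group of the mice, and open symbols are libraries off the study list. The 6 red libraries lie above and to the right of the 6 blue ones in each panel, and the 3 red circles lie to the right of the 3 red squares.

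Other features of the libraries also differed between these age groups, which were chosen after the levels of Ifng and the receptor chains were seen. The marker sums and immunoglobulin shares given below overlapped between the groups. Tbx21, the transcription factor T-bet of type 1 lymphocytes, was at 42.4 to 124 CPM in the older and 4.88 to 35.0 CPM in the younger group, and Stat4, which carries the IL-12 signal, at 25.9 to 34.3 and 6.75 to 22 CPM. The summed level of 16 markers of type 1 and cytotoxic lymphocytes was 1875 to 14800 CPM in the older and 739 to 4720 CPM in the younger group. For these 16 genes all log2 fold changes were positive and their median was 1.78, beside 0.10 over all genes. The sum of 16 dendritic cell and macrophage markers was 4509 to 7882 CPM in the older and 7085 to 17690 CPM in the younger group. That of 6 plasma cell markers was 8944 to 24280 CPM in the older and 15740 to 49620 CPM in the younger group. Immunoglobulin genes took 12.1 to 20.8% of counts in the older and 12.5 to 44% in the younger libraries. Xist, a transcript of female cells that was chosen after its values were seen, was above 100 CPM in 4 of 6 older and 1 of 6 younger libraries, so that sex and age were partly aligned. Among the libraries without Xist above 100 CPM, Ifng was at 12.6 and 14.3 CPM in the 2 older and at 0 to 5.59 CPM in the 5 younger ones, and in the 1 younger library with it Ifng was at 0. The part of cell composition and sex in the age difference was not tested. Replicates 16 and 17 were of one age and genotype, as were replicates 20 and 21, and litter or sort day, which the labels do not give, cannot be told apart from age.

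Within the older group, Il12rb2 ranged from 33.8 to 39.6 CPM in 3 Hoil1+/+ libraries and from 22.6 to 25 CPM in 3 Hoil1-/- libraries. Tbx21 was at 66.4 to 124 CPM and 42.4 to 46.6 CPM and Cd3e, a T cell gene, at 743 to 979 CPM and 204 to 361 CPM in the same libraries. Ebi3 went the other way, at 26.4 to 34.9 CPM and 41.6 to 53.2 CPM. Stat4 overlapped, at 27.7 to 34.3 CPM and 25.9 to 31.2 CPM. Of 17020 genes, 15.1% did not overlap between genotypes in the older group. Within the younger group, where 6.94% of genes did not overlap, these 5 genes overlapped. Among the members, only Il23a did not overlap there, at 2.43 to 4.75 CPM in Hoil1+/+ libraries and 0 in Hoil1-/- libraries. With 3 libraries on each side these are descriptions.

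With age group as a term on the study list, where age and Hoil1 genotype were not balanced, the Hoil1 effect in CD45+ cells again called 0 of 10 members. Of all genes, 0.0176% were called (0.0249% with all 12 libraries). The errors of the receptor chains fell, which followed from a division chosen after their levels were seen. Il12rb1 was then at 0.25 (SE 0.21), Il27ra at 0.18 (SE 0.17) and Il12rb2 at -0.12 (SE 0.28). Exact two-sided permutation within the age groups (400 splits, all 12 libraries) gave no p under 0.19 for any member.

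In CD45- cells 3 members passed the filter on low counts, Il18, Il27ra and Ebi3, and 0 of 3 were called for the averaged Hoil1 effect, where 0.0182% of 16453 genes were (3 genes, and 868 genes or 5.28% at an unadjusted p under 0.05). Ebi3 passed the filter only through 18 counts in 2 Hoil1+/+ libraries, at up to 1.66 CPM, and was at 0 in every Hoil1-/- library. With so few counts, all in one Hoil1 genotype, its test decides nothing. Il18 was at 0.751, 1.45 and 3.44 CPM in Hoil1+/+ f/f replicates 6, 7 and 8 and at 9.29, 15.9 and 3.25 CPM in Hoil1+/+ ΔIEC replicates 9, 10 and 11. It was at 6.03, 10.4 and 2.25 CPM in Hoil1-/- f/f replicates 1, 2 and 23 and at 1.16, 0.483 and 1.39 CPM in Hoil1-/- ΔIEC replicates 3, 4 and 5. The high libraries were thus in 2 genotypes that differ in both genes. Replicates 9 and 10 were of one age (9.7 weeks), as were replicates 1 and 2 (9.4 weeks). Replicates 11 and 23 were of other ages (9.0 and 9.9 weeks), and the labels give no litter or sort day.

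The averaged log2 fold change of Il18 was -0.56 (SE 0.61), from 2.11 (SE 0.89, adjusted p = 0.366) within f/f mice and -3.23 (SE 0.89, adjusted p = 0.603) within ΔIEC mice. The difference of the effects was -5.34 (SE 1.25, unadjusted p = 0.00133, adjusted p = 0.121, edgeR), where 0% of genes were called and 3409 had an unadjusted p under 0.05. Within f/f and ΔIEC mice 0.0365% and 0.00608% of genes were called. On the study list Il18 did not overlap between Hoil1 genotypes in either, as did 34.1% of genes within f/f and 11.4% within ΔIEC mice. DESeq2 called the value within ΔIEC mice (adjusted p = 0.0158) and the difference (adjusted p = 9.88e-04). For both, DESeq2 called far more genes in all than edgeR's quasi-likelihood test, and the counts are given at the end.

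**Figure D5:**
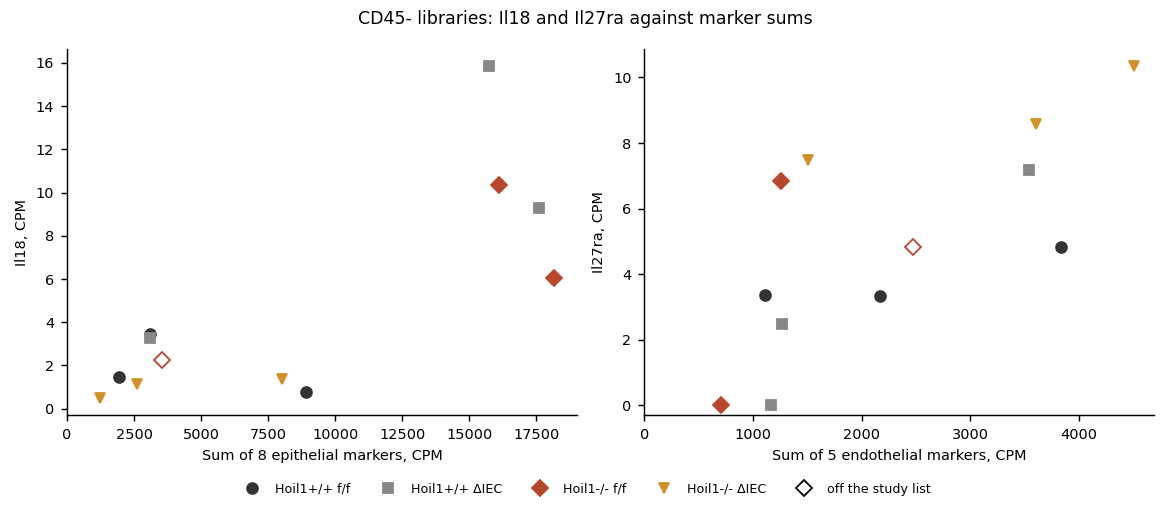
Il18 against the summed CPM of 8 epithelial markers (left) and Il27ra against the summed CPM of 5 endothelial markers (right) in the 12 CD45- libraries. Symbols give the genotype, and the open symbol is the library off the study list. The 4 libraries with the highest Il18 are the 4 with the highest epithelial sums, 15730 to 18180 CPM.

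The highest Il18 levels in CD45- cells were in the libraries with the highest epithelial content. The 4 libraries with the highest Il18, Hoil1+/+ ΔIEC replicates 9 and 10 and Hoil1-/- f/f replicates 1 and 2, were the 4 with the highest sum of 8 epithelial markers, 15730 to 18180 CPM against 1220 to 8921 CPM in the other 8. Among those 8 the order differed, since Hoil1+/+ f/f replicate 6, with the highest sum of 8921 CPM, had 0.751 CPM of Il18, and replicate 8, with 3079 CPM, had 3.44 CPM. Per 1000 CPM of those markers, Il18 was at 0.528 to 1.06 CPM in Hoil1+/+ ΔIEC and 0.172 to 0.444 CPM in Hoil1-/- ΔIEC libraries. It was at 0.0842 to 1.12 CPM in Hoil1+/+ f/f and 0.332 to 0.643 CPM in Hoil1-/- f/f libraries. On that scale the f/f genotypes overlapped and the ΔIEC genotypes did not, and no test was made.

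Il27ra in CD45- cells was at 3.38, 4.84 and 3.34 CPM in Hoil1+/+ f/f and at 2.47, 0 and 7.19 CPM in Hoil1+/+ ΔIEC libraries. It was at 0, 6.85 and 4.83 CPM in Hoil1-/- f/f and at 8.59, 10.3 and 7.48 CPM in Hoil1-/- ΔIEC libraries, the last group above every other library. Within ΔIEC mice 11.4% of genes did not overlap between Hoil1 genotypes. The averaged log2 fold change was 0.63 (SE 1.07, edgeR), and -4.03 without Hoil1-/- f/f replicate 2. Of its 4 highest libraries, 3 were among the 4 highest in summed endothelial markers. The order otherwise differed, since Hoil1+/+ f/f replicate 7, with a sum of 3831 CPM, had 4.84 CPM of Il27ra. Hoil1-/- ΔIEC replicate 5, with a sum of 1507 CPM, had 7.48 CPM. The 16 type 1 and cytotoxic lymphocyte markers summed to 0.0793 to 29.9 CPM in CD45- libraries, with 4 of the 16 at 0 in all 12.

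Other genes of these pathways also differed between the fractions. Of 11 partners in IL-12 family signaling, 8 were higher and 1 lower in CD45+ cells. Stat4 had a log2 fold change of 9.51 (SE 0.67, adjusted p = 4.88e-08), and Il6st, the gp130 chain through which IL-27 also signals, was lower at -1.80 (SE 0.31, adjusted p = 1.48e-04, edgeR). Of 11 genes for IL-18 processing and reception, 6 were higher, among them the receptor chains Il18r1 (3.93, SE 0.49) and Il18rap (6.50, SE 0.96), and 1, the inflammasome gene Nlrp6, was lower (-7.35, SE 1.07). Of 20 genes for the IFN-γ receptor and response, 10 were higher and 2 lower, the GTPase Iigp1 (-2.83, SE 0.27) and Nos2 (-4.91, SE 0.98). The median log2 fold change was 1.31, 0.87 and 0.80 for these lists, beside 0.03 over all genes.

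For the averaged Hoil1 effect, 0 genes of these 3 lists were called in either fraction by edgeR. At an unadjusted p under 0.05 stood Il18rap in CD45+ cells, at 0.99 (SE 0.33, adjusted p = 0.784), and in CD45- cells Socs3, a feedback inhibitor of cytokine signaling, at -2.00 (SE 0.51, adjusted p = 0.495) and Irf1, a transcription factor induced by IFN-γ, at -1.05 (SE 0.43, adjusted p = 0.926). In CD45+ cells the medians of the lists were 0.12, -0.03 and -0.06, beside -0.05 over all genes. In CD45- cells they were -0.05, -0.20 and -0.06, beside -0.08. The summed IFN-γ list was at 2132 to 3176 CPM in Hoil1+/+ and 2092 to 2700 CPM in Hoil1-/- CD45+ libraries.

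Among marker lists in CD45+ cells, the type 1 and cytotoxic lymphocyte markers had a median log2 fold change of -0.84 for the Hoil1 effect, with 0 of 16 called and 0 at an unadjusted p under 0.05. Their sum was at 739 to 14800 CPM in Hoil1+/+ and 1463 to 4720 CPM in Hoil1-/- libraries. Of the dendritic cell and macrophage markers, 0 of 16 were called and Zbtb46 (-0.87, SE 0.29) and Cx3cr1 (-0.51, SE 0.22) had an unadjusted p under 0.05. Their sum was at 4509 to 14120 CPM and 6688 to 17690 CPM. The part of these cells in the members' levels was not tested.

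As a description, the genes whose log2(CPM + 0.5) was closest to each member over the 12 CD45+ libraries were listed for the 6 members with a count in all of them, out of 17028 genes. For Il27ra they were Il18r1 (Pearson's r = 0.95), the GTPase gene Gimap3 and the T cell receptor gene Trbc1. For Il12rb1 they included the T cell kinase gene Zap70 (r = 0.91), and for Il12rb2 they were Smurf2 (r = 0.98), Abcb1a and the transcription factor gene Ikzf2. For Ebi3 they were the kinase gene Lyn (r = 0.96), Cyp4f18 and the lipoxygenase gene Alox15. Il27 was closest to Apold1 (r = 0.89) and Il18 to Cdk14 (r = 0.94). The libraries share depth and cell composition differences, and these are the highest of many correlations over few points.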

How the data were processed

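RNA from CD45+ and CD45- cells of 4 genotypes was sequenced after poly-A and strand selection. The authors used cutadapt for trimming, STAR for alignment (mm10) and featureCounts for ENSEMBL gene counts, and deposited raw counts, without normalization, for 24 libraries; the strand setting is not given in the sources used here. Symbols, positions and exon lengths came from GENCODE M21 (GRCm38).

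CPM are counts over TMM-scaled library sizes of all 24 libraries. Tests used edgeR 4.0.16 in R 4.3.3 (quasi-likelihood, a mean per group, filterByExpr with minimum count 10 and minimum total 15, Benjamini-Hochberg adjustment over all genes tested, threshold 0.05, two-sided), within each fraction on the 10 or 11 libraries of the study list, and on 21 libraries between fractions. The steps were tested on simulated counts without age or cell composition differences, which do not give the power of the tests in these libraries. Alternatives were all libraries, RLE factors, no filter, DESeq2 1.42.0, the likelihood ratio test, exactTest, removal of immunoglobulin genes, each library left out, and, added after the values were seen, age group. No 2 libraries were identical. P-values measure the spread between libraries.

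The members and gene lists were chosen with earlier results of these data known. Named are all 10 members, check genes, at most 4 genes per list and fraction with the smallest p, and the 3 genes most like a member. Others were chosen after their values were seen. Some marker lists are not reported here.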

Additional observations from a re-analysis of the deposited data

Results flagged for a closer look

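Il18 in CD45- cells was higher in both Hoil1-/- f/f libraries of the study list than in the 3 Hoil1+/+ f/f libraries, and lower in all 3 Hoil1-/- ΔIEC than in all 3 Hoil1+/+ ΔIEC libraries. The fitted Hoil1 effects thus pointed in opposite directions in the f/f and ΔIEC mice, and neither was called by edgeR. Of all genes, 34.1% did not overlap between Hoil1 genotypes within f/f mice and 11.4% within ΔIEC mice. Divided by the summed epithelial markers, Il18 overlapped between the f/f genotypes and not between the ΔIEC genotypes. The difference of the log2 fold changes was -5.34 (SE 1.25), with an adjusted p of 0.121 by edgeR's interaction test and a range of 9.88e-04 to 0.295 over 19 alternatives. Hoil1-/- f/f replicate 23, off the study list, was at 2.25 CPM, within the Hoil1+/+ f/f range. The 4 libraries highest in Il18 were the 4 highest in summed epithelial markers, but the order of the other 8 differed, and the part of epithelial content in the difference was not tested.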

How the results depend on the processing

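No paired analysis was possible because the labels number the libraries from 1 to 24 without repeats and name no mouse. Some ages match between the fractions of a genotype and others do not. The count of members called stayed at 0 for the averaged Hoil1 and Il4ra effects in both fractions under every alternative, and within ΔIEC mice in CD45+ and f/f mice in CD45- cells. It was 1 (Il27) in CD45+ f/f mice by DESeq2, the likelihood ratio test and exactTest, 1 (Il27) for the CD45+ difference of effects by DESeq2, 1 (Il18) in CD45- ΔIEC mice by DESeq2, and 1 (Il18) for the CD45- difference by DESeq2 and the likelihood ratio test. Leaving out 1 library gave 0 to 1 for the CD45- difference, where the call (adjusted p = 0.029) came without Hoil1+/+ ΔIEC replicate 11, and 7 to 9 for the fractions. For age group in CD45+ cells the count was 0 on the study list and 3 with all libraries. Leaving out 1 library gave 0 to 3 members there, and 2 to 210 of all genes. The age division was chosen after these levels were seen, so its counts are no test of an age effect. The cause of the differences between alternatives was not tested.

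Small averaged Hoil1 effects in CD45+ cells changed sign. With all libraries Il12b was at -0.41, Ifng at -0.28 and Il18 at 0.081. With age group as a term Ifng was at -0.21, and with all libraries as well Ifng was at -0.28, Il12b at -0.59 and Il18 at 0.051. The Il4ra effect on Il27 in CD45+ cells was -0.54 with all libraries and -0.30 with age and all libraries, and that on Il18 in CD45- cells was 0.30 with both. Leaving out each library gave ranges of -0.033 to 0.25 for Ebi3, -0.63 to 0.76 for Ifng, -0.064 to 0.36 for Il12b and -0.27 to 0.57 for Il12rb2, -0.32 to 1.10 for Il27 within ΔIEC mice, and in CD45- cells -4.03 to 1.31 for Il27ra (Hoil1 effect) and -0.65 to 0.044 for Il18 (Il4ra effect).

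Counts over all genes depended strongly on the test. By DESeq2 and the likelihood ratio test they were 129 and 103 (CD45+ Hoil1 effect), 90 and 66 (f/f), 162 and 51 (ΔIEC), 332 and 201 (Il4ra) and 158 and 68 (difference), and in CD45- cells 172 and 135, 613 and 350, 145 and 62, 154 and 143, and 1466 and 1223, in the same order. With exactTest they were 49 and 40 in CD45+ and 203 and 40 in CD45- cells (f/f and ΔIEC). Under all libraries, RLE factors, no filter or age group they were at most 11 for these effects. Leaving out 1 library gave up to 1199 genes for the CD45- difference and up to 474 within f/f mice.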
